A study of Arabidopsis thaliana with 32 samples.

Results

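Of 19685 genes measured in Arabidopsis thaliana seedlings, 200 are described here that stood higher in VP16 seedlings and lower in SRDX seedlings than in hy5 seedlings after 1.5 h of light. The members were chosen on group means of log2(CPM + 1), where CPM is the submitters' read count scaled to library size. A member had to lie at least 0.5 above hy5 in VP16 and at most -0.4 relative to hy5 in SRDX at 1.5 h, and of the 270 genes that did so the 200 with the largest difference of VP16 minus SRDX were kept. Poly(A) RNA of whole seedlings, 40 to a sample, was sequenced with a stranded kit in 32 libraries of 12 groups. VP16 stands for 35S:FLASH-HY5-VP16 (hy5/hy5), a tagged HY5 fused to an activation domain, with 3 libraries in the dark and 3 at 1.5 h. OX stands for 35S:FLASH-HY5 (hy5/hy5), the same tagged protein with no added domain, also with 3 and 3. SRDX stands for 35S:FLASH-HY5-SRDX (hy5/hy5), the fusion to a repression domain, with 2 libraries per time at dark, 1.5 h and 4 h. Col is the wild type Col-0 with 3 and 3 libraries, and hy5 is the mutant hy5/hy5 with 3 dark, 3 1.5 h and 2 4 h libraries. All 3 transgenes are driven by the viral 35S promoter, which is active in most plant tissues, and all sit in the hy5 mutant, whose allele the labels do not name. The seeds of every group saw 1 h of white light at germination, then 3 days of darkness at 21 °C, and the light groups then had white light at 100 µmol m−2 s−1. The labels do not say how many independent transformants a line stands for or whether replicates were grown separately, so a p-value here reflects only how far these samples differ, which may be technical.

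HY5 is a basic leucine zipper transcription factor that accumulates when dark-grown seedlings meet light and promotes their greening and pigmentation. It binds DNA at elements with an ACGT core, among them the G-box CACGTG and the related CACGTC. HY5 has no strong activation domain of its own, so a fusion to VP16, an activation domain of a herpesvirus protein, is used to raise the genes it binds, and a fusion to SRDX, a short plant repression motif, to lower them. Among the genes known to depend on HY5 are those of flavonoid synthesis, which give seedlings their sunscreen pigments. A gene can also answer to such a fusion through another gene, and the data here hold no measurement of binding.

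The sequences before the annotated start of 7 members described here are shown first. These sequences were picked for holding the G-box or CACGTC, so they do not link either motif to the size of a response. They are the 250 bases upstream of the gene start in TAIR10.1, written 5′ to 3′ on the strand of the gene, and capitals mark CACGTG or CACGTC, of which GACGTG is the other strand. Both motifs contain ACGT, and positions are those of the motif's first base counted back from the start, with -1 the base before it. F3H lies on chr3:19024942-19025191 on the plus strand with CACGTG at -249 and CACGTC at -214. CHS lies on chr5:4488226-4488475 on the plus strand with CACGTG at -233. CHIL lies on chr5:1563036-1563285 on the plus strand with CACGTG at -67. ABCI21 lies on chr5:17755769-17756018 on the minus strand with CACGTC at -121. LHCB1.4 lies on chr2:14524357-14524606 on the plus strand with CACGTC at -164, -123 and -103. AT3G28550 lies on chr3:10704019-10704268 on the minus strand with CACGTC at -92. EXT10 lies on chr5:2041929-2042178 on the minus strand with CACGTC at -99.
F3H: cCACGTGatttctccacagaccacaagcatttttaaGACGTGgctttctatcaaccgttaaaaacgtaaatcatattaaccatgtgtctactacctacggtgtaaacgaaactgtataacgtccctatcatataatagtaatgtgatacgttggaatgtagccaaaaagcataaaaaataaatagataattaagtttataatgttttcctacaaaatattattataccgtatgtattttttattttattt
CHS: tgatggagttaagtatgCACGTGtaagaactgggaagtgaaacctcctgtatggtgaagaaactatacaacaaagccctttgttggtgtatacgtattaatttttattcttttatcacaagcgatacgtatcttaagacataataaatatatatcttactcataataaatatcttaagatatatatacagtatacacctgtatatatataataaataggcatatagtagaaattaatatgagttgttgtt
CHIL: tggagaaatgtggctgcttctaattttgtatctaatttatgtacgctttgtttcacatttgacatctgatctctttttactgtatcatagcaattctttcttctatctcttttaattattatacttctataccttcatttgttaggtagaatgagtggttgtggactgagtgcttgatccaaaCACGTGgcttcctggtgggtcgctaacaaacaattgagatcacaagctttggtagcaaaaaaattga
ABCI21: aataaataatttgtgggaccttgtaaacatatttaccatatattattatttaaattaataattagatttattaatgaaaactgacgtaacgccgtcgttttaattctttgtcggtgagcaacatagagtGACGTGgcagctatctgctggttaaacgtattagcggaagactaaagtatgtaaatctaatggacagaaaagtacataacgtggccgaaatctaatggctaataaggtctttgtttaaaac
LHCB1.4: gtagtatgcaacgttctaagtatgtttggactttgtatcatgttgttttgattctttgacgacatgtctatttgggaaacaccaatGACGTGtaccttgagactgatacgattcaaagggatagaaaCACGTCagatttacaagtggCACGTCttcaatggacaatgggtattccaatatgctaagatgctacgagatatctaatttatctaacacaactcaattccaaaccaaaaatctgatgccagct
AT3G28550: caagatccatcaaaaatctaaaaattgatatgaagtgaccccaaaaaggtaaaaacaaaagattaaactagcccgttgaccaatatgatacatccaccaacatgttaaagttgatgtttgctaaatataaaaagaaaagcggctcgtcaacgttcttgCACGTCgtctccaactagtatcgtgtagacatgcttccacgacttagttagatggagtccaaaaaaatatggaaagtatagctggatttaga
EXT10: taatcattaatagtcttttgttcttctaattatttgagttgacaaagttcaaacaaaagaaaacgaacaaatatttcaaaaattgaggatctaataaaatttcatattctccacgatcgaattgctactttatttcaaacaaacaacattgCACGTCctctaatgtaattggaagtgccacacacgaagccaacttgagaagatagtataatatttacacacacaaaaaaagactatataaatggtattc

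Over windows of 300 bases, the 250 shown and the 50 that follow, CACGTC on either strand was present in 39 of the 200 members (19.5%), against 7.49% of the 19579 measured genes with a window. CACGTG was present in 20 members (10%), against 9.02% of all windows. The ACGT core, which both motifs include, was present in 140 members (70%), against 50.9% of all windows. The palindrome GACGTC was present in 11 members (5.5%), against 3.14%. A motif of another class of factors, GATAAG, was present in 13% of members, against 15.03% of all windows. The shares of CACGTC and of the core were thus above those of all windows, and that of the G-box was close to them. No test was made of these shares. CACGTG or CACGTC was in the windows of 4 of the 9 flavonoid members (F3H, CHS, CHIL and UGT84A1), and neither was in those of FLS1, HYH, RUP1, ELIP2, SIG5 or CGA1. A match is a run of letters and not a measured binding site.

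Because the rule used VP16, SRDX and hy5 at 1.5 h, differences among these 3 groups at that time are given as a description. VP16 minus hy5 had a median of 1.14 over the members and ranged between 0.516 and 6.50 on the log2 scale. SRDX minus hy5 had a median of -0.625 and ranged between -2.35 and -0.4005. The last members kept were AT3G21351 and GSTU9, with VP16 minus SRDX differences of 1.293 and 1.292, and the first genes left out by that limit were AT3G62820 and MYBR1, with 1.290 and 1.287. On the VP16 side AT3G01190 (0.516) and AT5G43570 (0.556) were just inside, and AT5G17820 (0.4994) and AT1G18100 (0.4988) just outside. On the SRDX side SDHAF2 (-0.4005) and CEP3 (-0.4008) were just inside, and AT3G51750 (-0.3996) and PMEPCRF (-0.3953) just outside. Genes on either side of each limit had close values, so the edges of the set are not sharp.

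The largest VP16 minus SRDX differences at 1.5 h were those of F3H (7.27), FLS1 (6.50), CHS (6.43), AT3G57020 (6.32), ABCI21 (5.56), 4CL3 (4.96), KAT5 (4.66), CSLB03 (4.53), CHIL (4.48) and ELIP2 (4.46), all on the log2 scale. Of these 10, F3H, FLS1, CHS, 4CL3 and CHIL belong to flavonoid synthesis. All 200 members were found in the RefSeq gene table of TAIR10.1, 124 of them with a symbol, and they lie on chromosomes 1 to 5 in numbers of 49, 33, 46, 28 and 44. Of 17 lists with 307 measured genes of light and growth pathways, 24 members were on 7. These were 9 of 29 flavonoid genes, 2 of 32 light-signalling genes, 1 of 19 B-box genes, 3 of 53 photosynthesis genes, 3 of 15 photoprotection and DNA repair genes, 2 of 10 regulators of the chloroplast and 4 of 7 root hair markers. Another 4 listed genes passed both thresholds but fell outside the 200, namely UGT78D1 (flavonoid), BBX24 (B-box), LHCB1.1 and LHCB1.5. No member was on the lists for chlorophyll, carotenoids, the clock, auxin, gibberellin and brassinosteroid, cell wall loosening, endodermis, seed storage, heat shock or wounding. Yet 5 of the 6 measured heat shock genes and 3 of the 4 measured wounding genes passed the VP16 threshold, and 0 passed that of SRDX.

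The libraries held 7499581 to 21420680 reads in the measured genes, so that 1 read was worth 0.0457 to 0.131 CPM, and counting error was smallest in the deepest libraries. HY5 itself, the gene altered in these lines, was listed in the dark at 1946, 2619 and 2449 CPM in VP16, 16907, 13613 and 12317 CPM in OX and 1082 and 969 CPM in SRDX, against 21.7, 22.0 and 29.98 CPM in Col and 21.4, 19.4 and 24.4 CPM in hy5. At 1.5 h HY5 was at 2179, 2189 and 2423 CPM in VP16, 10357, 8198 and 8969 CPM in OX, 807 and 759.5 CPM in SRDX, 208, 207 and 232 CPM in Col and 25.2, 25.1 and 25.1 CPM in hy5. The transgenic lines thus stood far above Col and hy5 at both times, OX above VP16 and VP16 above SRDX. At 4 h HY5 was at 908 and 925 CPM in SRDX and at 85.4 and 79.1 CPM in hy5. The HY5 level in the hy5 mutant was thus higher at 4 h than in the dark or at 1.5 h. In the dark the Col and hy5 libraries overlapped, and hy5 still listed HY5 reads. The lines therefore differ in HY5 level as well as in the fused domain, and these cannot be told apart here.

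Over the groups, the members' median level at 1.5 h was 29.2 CPM in VP16, 18.9 in OX, 4.56 in SRDX, 17.4 in Col and 8.63 in hy5. At that time 145 members had their highest group mean in VP16, 36 in OX and 19 in Col, and 195 had their lowest in SRDX. By the rule, hy5 lay below VP16 and above SRDX at 1.5 h in every member, so these counts are partly fixed. In the dark the median was 8.27 CPM in VP16, 5.71 in OX, 2.48 in SRDX, 5.10 in Col and 4.45 in hy5, and at 4 h it was 6.05 in SRDX and 12.9 in hy5. In the dark, which the rule did not use, 134 members were highest in VP16 and 158 were lowest in SRDX. The shares of all genes highest or lowest in these groups were not counted. Across all 12 groups 107 members peaked in VP16 at 1.5 h, 34 in OX at 1.5 h, 30 in VP16 in the dark and 19 in Col at 1.5 h. The rule also shaped these counts through its groups at 1.5 h. CPM is not divided by gene length, so levels are compared between groups and not between genes. Low counts limit some members, since 30 had every group mean under 5 CPM.

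**Figure D1:**
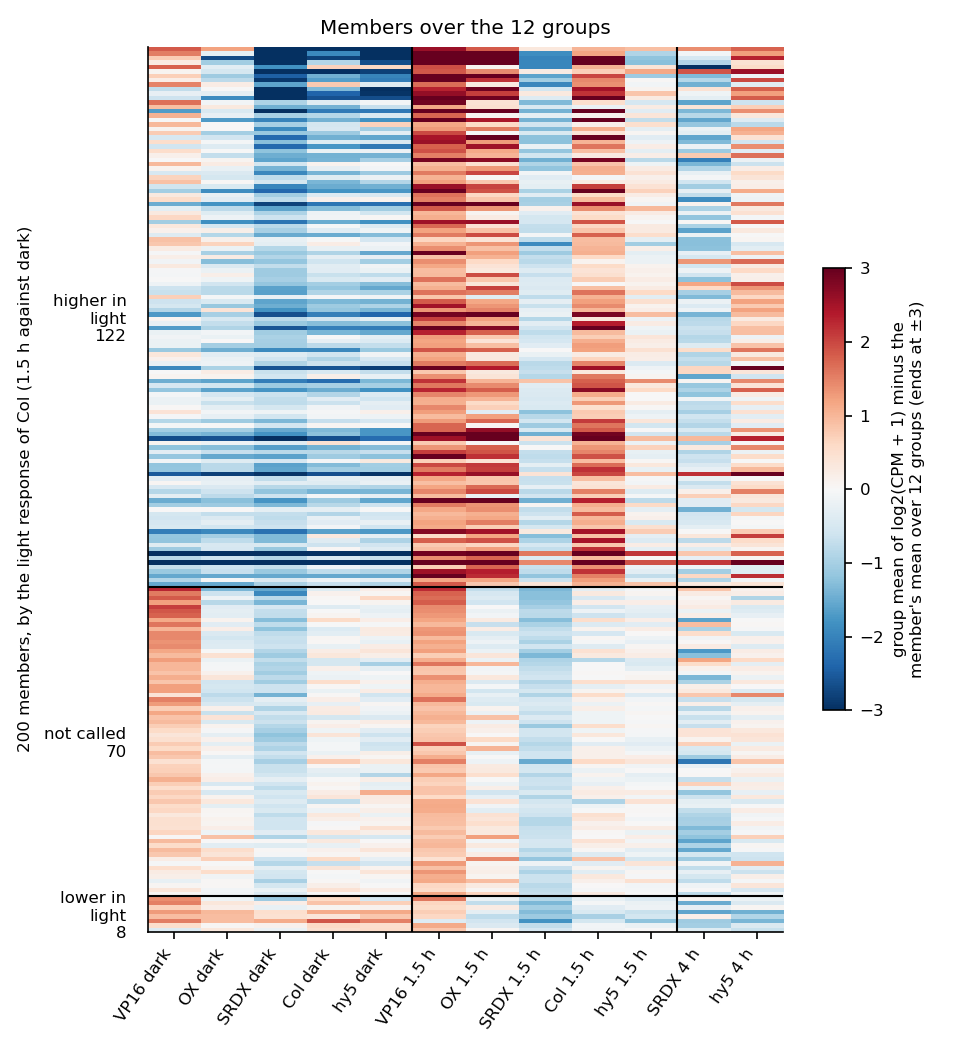
Group means of log2(CPM + 1) of the 200 members (rows) in the 12 groups (columns), each row less its mean over the groups, with colour cut at ±3. Rows are split by the light response of Col into 122 higher, 70 not called and 8 lower, and ordered within a block by VP16 minus SRDX in the dark. In the upper block OX and Col at 1.5 h are high beside VP16, while in the middle block the highest columns are the VP16 columns, in the dark as at 1.5 h.

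In the dark, before any light treatment, many of the members were already higher in VP16 than in hy5. By limma's moderated test over all 19685 genes, with Benjamini-Hochberg adjustment and an adjusted p below 0.05, 117 members rose in VP16 (58.5%, against 11.1% of all genes) and 6 fell (3%, against 11.1%). The median difference was 0.66 on the log2(CPM + 1) scale, a scale that understates changes of low genes. The members that rose most were LHCB1.4, AT3G57020, F3H, CHS and LHCB1.2. AT3G57020, annotated as a calcium-dependent phosphotriesterase family protein, had 50.9, 48.2 and 54.9 CPM in VP16 and 1.23, 1.00 and 1.08 CPM in hy5. Every VP16 library was far above every hy5 library, and the difference was 4.64 ± 0.18 (SE, adjusted p = 1.1e-17). RPT2, a protein of phototropism signalling, had 152, 161 and 168 CPM in VP16 and 24.96, 22.5 and 23.5 CPM in hy5, a difference of 2.71 ± 0.11 (adjusted p = 1.94e-17). Other gene groups moved with the same libraries, and their part in the result was not tested. All 6 heat shock markers fell in dark VP16, with a summed level of 57.0 to 79.0 CPM in VP16 and 223 to 341 CPM in hy5. All 6 markers were also lower in dark OX than in dark hy5, with a sum of 107 to 117 CPM. At 1.5 h, the time of the rule, they summed to 307 to 742 CPM in VP16, 351 to 424 in SRDX and 200 to 316 in hy5. The 4 wounding, touch and defence markers summed at 1.5 h to 166 to 324 CPM in VP16, 183 to 194 in SRDX and 113 to 137 in hy5. The 71 chloroplast-encoded genes summed to 5677 to 6062 CPM in dark VP16 and 3074 to 5197 CPM in dark hy5. In dark SRDX they summed to 4391 to 7458 CPM and in dark OX to 3618 to 4656 CPM. Only with members of at least 5 CPM on average (134 of the 200) was the count lower by more than 1.5 times, at 73 higher.

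The 6 members that were lower in VP16 than in hy5 in the dark show that the direction at 1.5 h was not the direction in the dark for every member. ARGOS, which promotes organ growth, had 17.0, 22.6 and 20.6 CPM in dark VP16 and 43.1, 36.9 and 38.9 CPM in dark hy5, a difference of -0.95 ± 0.16 (adjusted p = 3.98e-05). At 1.5 h, where the rule chose it, it stood at 41.6, 63.0 and 41.8 CPM in VP16 and 25.2, 29.7 and 26.2 CPM in hy5. The order of the groups was thus opposite at the 2 times, with no overlap at either. NRT1.7, a nitrate transporter, and DTX35, an efflux carrier needed for flavonoid levels, were also lower in dark VP16, by -0.86 ± 0.18 (adjusted p = 0.000838) and -0.60 ± 0.09 (adjusted p = 1.54e-05). DTX35 had 137, 136 and 139.8 CPM in dark VP16 and 213, 194 and 222 CPM in dark hy5, and 565, 547 and 578 CPM in VP16 and 210.4, 221 and 219 CPM in hy5 at 1.5 h.

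**Figure D2:**
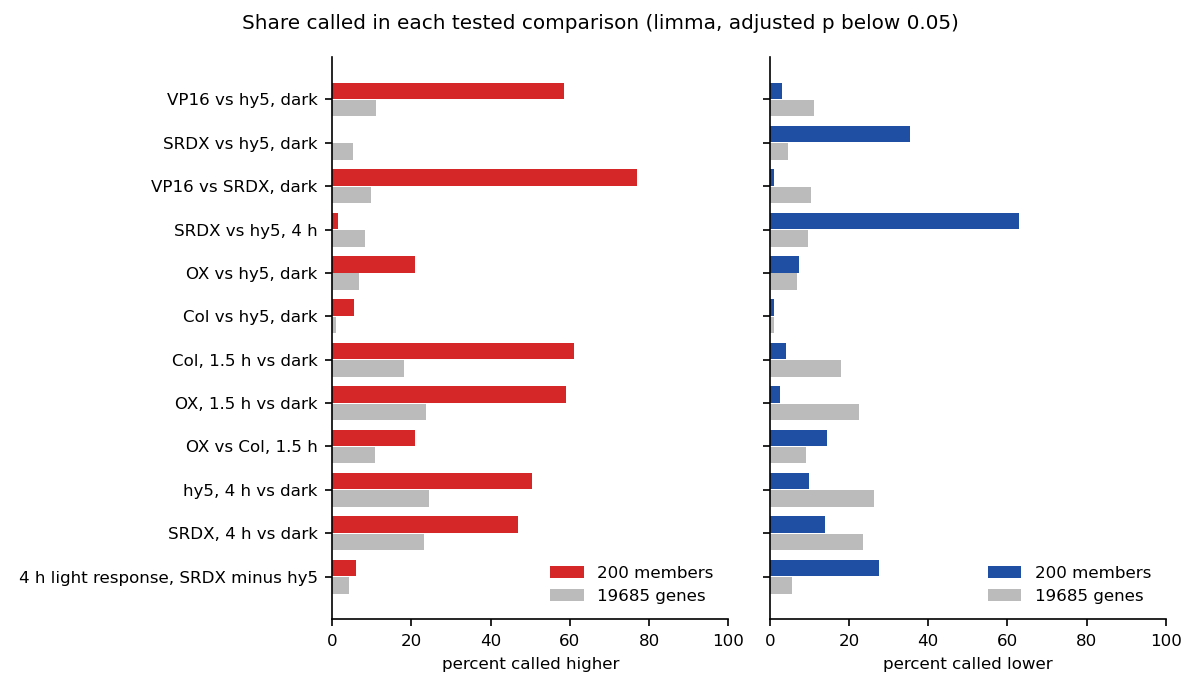
Percent of the 200 members (coloured bars) and of all 19685 genes (grey bars) called higher (left) and lower (right) in each tested comparison by limma at an adjusted p below 0.05, bars starting at 0. Among members 58.5% were higher in VP16 than hy5 in the dark and 63% were lower in SRDX than hy5 at 4 h, against 11.1% and 9.65% of all genes.

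SRDX seedlings had lower levels of many members than hy5 in the dark and of more members after 4 h of light, with 2 libraries of SRDX each time. In the dark 71 members fell in SRDX (35.5%, against 4.52% of all genes) and 0 rose by limma (0%, against 5.19%), with 2 higher at an unadjusted p below 0.05 and 0 higher by edgeR or DESeq2. The median difference in the dark was -0.50. Without SRDX replicate 2 in the dark the count was 34, and without hy5 replicate 3 in the dark it was 44. At 4 h 126 members fell in SRDX (63%, against 9.65% of all genes) and 3 rose (1.5%, against 8.24%), with a median of -0.85. Of 5 seed storage markers 3 rose in SRDX at 4 h, with a summed level of 53.6 to 62.5 CPM in SRDX and 10.8 to 19.0 CPM in hy5, and their part in the result was not tested. Of the members, 53 fell at both times, 73 at 4 h alone and 18 in the dark alone. The share of all genes that fell at both times was not counted.

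AT1G02360, annotated as a chitinase family protein, fell most at both times. It had 3.39 and 3.96 CPM in dark SRDX and 19.3, 24.8 and 28.7 CPM in dark hy5, a difference of -2.42 ± 0.15 (adjusted p = 9.54e-13). At 4 h it had 1.14 and 0.908 CPM in SRDX and 23.1 and 23.9 CPM in hy5, a difference of -3.60 ± 0.17 (adjusted p = 4.28e-16). SRDX libraries lay below all others at both times, and dark VP16 lay above hy5 at 49.4, 58.4 and 55.7 CPM. AZI1, a lipid-transfer-type protein of systemic immunity, had 15.5 and 15.2 CPM in dark SRDX, against 39.7, 36.9 and 45.5 CPM in dark hy5, and 4.70 and 8.30 CPM in SRDX, against 61.9 and 53.7 CPM in hy5, at 4 h. Its differences were -1.35 ± 0.15 (adjusted p = 2.49e-07) in the dark and -3.01 ± 0.17 (adjusted p = 3.47e-14) at 4 h. AZI1 in dark VP16, at 45.8, 43.7 and 43.2 CPM, overlapped hy5 (difference 0.12 ± 0.14, adjusted p = 0.569), so that in the dark this member was lower in SRDX and not called in VP16.

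Of the members 80 were both higher in dark VP16 and lower in SRDX in the dark or at 4 h (40%, against 3.00% of all genes), and 28 of these were lower in SRDX at both times (14%, against 0.290%). Another 19 members were neither higher in dark VP16 nor lower in SRDX in the dark or at 4 h. KAT5, a peroxisomal thiolase of fatty acid breakdown, was among the 19. It had 1.4005, 0.704 and 1.23 CPM in dark VP16 and 1.31, 0.455 and 1.33 CPM in dark hy5, and 3.09 and 4.22 CPM in SRDX and 6.64 and 5.76 CPM in hy5 at 4 h (difference -0.64 ± 0.29, adjusted p = 0.14). In the dark these levels of KAT5 were at most 1.82 CPM in all groups. Directly compared in the dark, 154 members were higher in VP16 than in SRDX (77%, against 9.73% of all genes) and 2 lower (1%, against 10.3%), and with a mean of at least 5 CPM 97 were higher. This comparison shares its libraries with the dark comparisons to hy5 above.

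The change between dark and 4 h differed between SRDX and hy5 in 67 members, tested as an interaction that was added after the data had been seen. In 55 members the 4 h change was lower in SRDX than in hy5 (27.5%, against 5.74% of all genes), and in 12 it was higher (6%, against 4.34%). Leaving out 1 library in turn gave 3 to 8 such higher members, the fewest without SRDX replicate 1 at 4 h. Within each genotype most light responses were upward, with 94 members higher and 28 lower at 4 h than in the dark in SRDX (47% and 14%, against 23.1% and 23.6% of all genes), and 101 higher and 20 lower in hy5 (50.5% and 10%, against 24.5% and 26.3%). PKS1, a phototropism protein bound by phytochrome, had 11.8 and 14.5 CPM in SRDX at 4 h and 9.35 and 11.1 CPM in SRDX in the dark, and 35.3 and 37.3 CPM in hy5 at 4 h and 9.98, 9.36 and 8.79 CPM in hy5 in the dark. Dark SRDX and dark hy5 overlapped while at 4 h hy5 stood well above SRDX, and the responses differed by -1.52 ± 0.16 (adjusted p = 2.54e-07). AT1G02360 (-1.18 ± 0.22, adjusted p = 0.00108), AZI1 (-1.66 ± 0.23, adjusted p = 1.57e-05) and RPT2 (-1.11 ± 0.18, adjusted p = 0.000152) also had lower 4 h changes in SRDX.

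**Figure D3:**
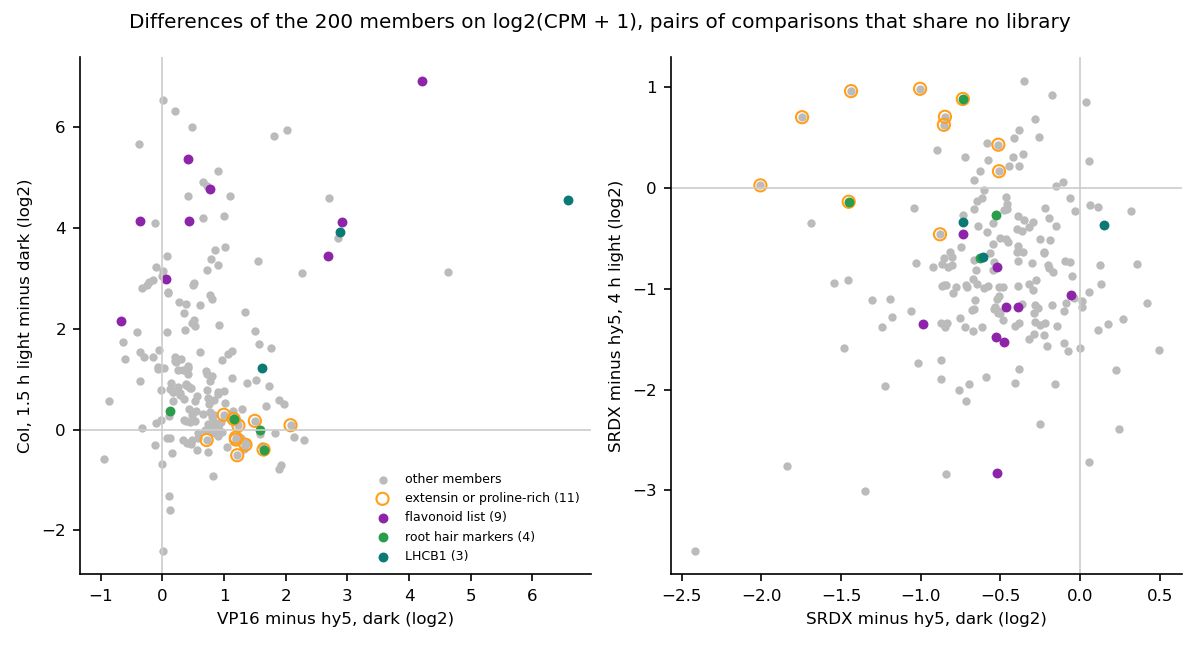
Log2 differences of the 200 members on the log2(CPM + 1) scale, with VP16 minus hy5 in the dark against the light response of Col on the left and SRDX minus hy5 in the dark against SRDX minus hy5 at 4 h on the right; the axes of a panel share no library. The 9 flavonoid members lie at 2.14 to 6.92 on the Col axis and at -0.67 to 4.22 on the VP16 axis, and the 11 extensin or proline-rich members lie near 0 on the Col axis and, on the right, lower in SRDX in the dark but spread around or above 0 at 4 h.

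Of the lists, flavonoid synthesis held the most members, with the enzymes of the early steps, of flavonol formation and of sugar attachment and with the regulator MYB111 among its 9 members. All 9 rose in light in Col and all 9 in OX (1.5 h against dark). In the dark 4 were higher in VP16 than in hy5 (F3H, FLS1, CHS and CHIL) and 1 lower (MYB111), and 8 fell in SRDX at 4 h. The dark VP16 call of CHIL did not pass by edgeR (adjusted p = 0.0592), without hy5 replicate 1 (adjusted p = 0.105), or without VP16 replicate 1 (adjusted p = 0.0936) or 3 (adjusted p = 0.0674). Of the whole list of 29 genes, 23 rose in light in Col and 13 fell while 1 rose in SRDX at 4 h, and in the dark 6 rose and 4 fell in VP16. The whole list had a median VP16 minus hy5 difference in the dark of 0.05, against 0.43 for the 9 members.

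F3H, flavanone 3-hydroxylase, makes dihydroflavonols. It had 28.7, 32.7 and 38.4 CPM in dark VP16, 2.80, 1.31 and 2.45 CPM in dark OX, 0.221 and 0.330 CPM in dark SRDX, 1.802, 1.73 and 2.21 CPM in dark Col and 0.768, 1.09 and 0.663 CPM in dark hy5. Dark VP16 was thus above every other dark group, and its difference from hy5 was 4.22 ± 0.19 (adjusted p = 5.56e-16), where dark OX differed from hy5 by 0.77 ± 0.19 (adjusted p = 0.00786). At 1.5 h F3H had 859.9, 646 and 895 CPM in VP16, 395, 335 and 369 CPM in OX, 6.64 and 2.48 CPM in SRDX, 355, 318 and 381 CPM in Col and 8.45, 8.92 and 6.23 CPM in hy5. OX and Col overlapped at 1.5 h and did not pass the test (0.06 ± 0.19, adjusted p = 0.866). At 4 h it had 13.2 and 13.1 CPM in SRDX and 97.3 and 101 CPM in hy5, a difference of -2.82 ± 0.24 (adjusted p = 3.24e-10). F3H in the hy5 mutant was therefore higher at 4 h than in the dark, by 5.77 ± 0.22 (adjusted p = 4.08e-19) in seedlings that carry no HY5 transgene. The HY5 level listed in these hy5 libraries was also higher at 4 h, at 85.4 and 79.1 CPM, than in the dark.

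CHS, chalcone synthase, catalyses the entry step. It had 22.9, 22.7 and 39.5 CPM in dark VP16, 11.3, 8.54 and 12.3 CPM in dark OX, 1.03 and 0.770 CPM in dark SRDX, 10.9, 12.4 and 13.1 CPM in dark Col and 2.99, 2.91 and 2.40 CPM in dark hy5. CHS was 1 of only 11 members that were higher in dark Col than in dark hy5, by 1.7995 ± 0.24 (adjusted p = 3.64e-05). VP16 was above hy5 by 2.92 ± 0.24 (adjusted p = 2.55e-10). The dark SRDX call for CHS (-0.99 ± 0.27, adjusted p = 0.0165) did not pass without SRDX replicate 2 (adjusted p = 0.166) or without hy5 replicate 1 (adjusted p = 0.0521). At 4 h CHS had 10.6 and 13.4 CPM in SRDX and 35.4 and 28.8 CPM in hy5 (-1.35 ± 0.29, adjusted p = 0.00112).

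FLS1, flavonol synthase, had 14.3, 15.7 and 24.4 CPM in dark VP16 and 1.54, 2.27 and 1.91 CPM in dark hy5 (2.69 ± 0.22, adjusted p = 3.6e-10). At 1.5 h FLS1 had 131, 104 and 129 CPM in OX and 59.0, 43.2 and 33.9 CPM in Col, so that OX was higher by 1.43 ± 0.22 (adjusted p = 2.84e-05). CHIL, a chalcone isomerase-like protein that aids flux into the pathway, also stood higher in OX than in Col at 1.5 h, by 1.21 ± 0.24 (adjusted p = 0.000695). UGT78D2, which attaches glucose to flavonols and anthocyanidins, showed the opposite order, with 153, 133 and 156 CPM in OX and 183, 209.7 and 261 CPM in Col (-0.55 ± 0.16, adjusted p = 0.0139). That call did not pass without Col replicate 3 (adjusted p = 0.103) or without OX replicate 2 (adjusted p = 0.0793).

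MYB111, a transcription factor that activates flavonol genes, differed from F3H, CHS and FLS1 in the order of the groups. It had 0.800, 1.14 and 0.949 CPM in dark VP16 and 2.92, 1.73 and 1.82 CPM in dark hy5, a difference of -0.67 ± 0.24 (adjusted p = 0.0457), which did not pass when any 1 of the 6 libraries was left out (highest adjusted p 0.212). At 1.5 h it had 7.27, 4.64 and 8.405 CPM in VP16, 12.4, 6.20 and 8.75 CPM in OX, 14.5, 18.17 and 21.0 CPM in Col and 2.41, 2.48 and 2.08 CPM in hy5. Col was thus the highest group for this regulator, above OX by 0.93 on the log2 scale (OX minus Col -0.93 ± 0.24, adjusted p = 0.00662, and adjusted p = 0.0714 without OX replicate 2). The 3 flavonoid enzymes F3H, CHS and FLS1 had their highest group mean in VP16 at 1.5 h.

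**Figure D4:**
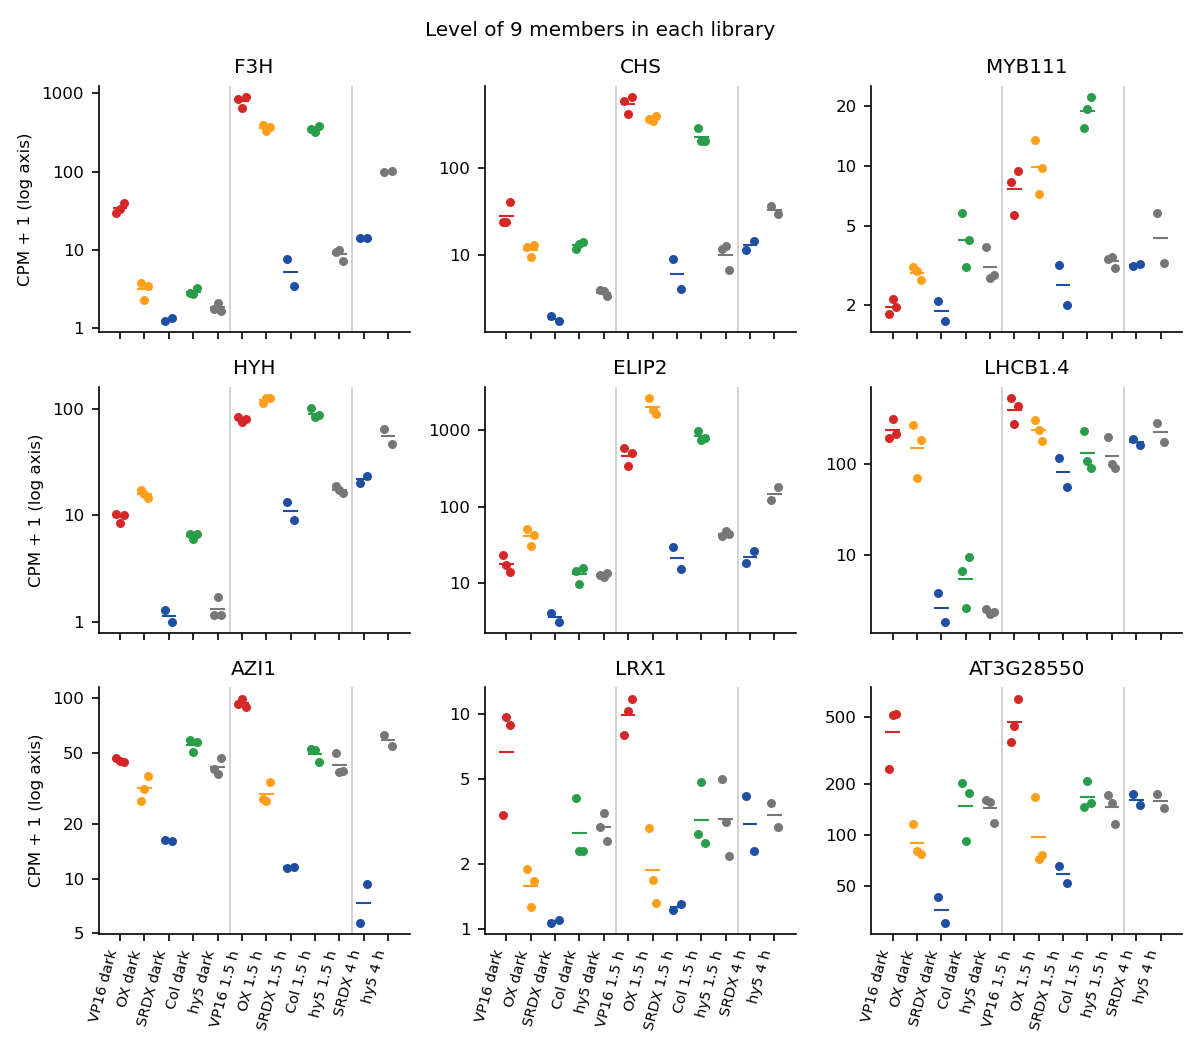
CPM + 1 on a log axis for 9 members in each library (points) with the mean of the log values (bars), groups ordered by time and coloured by genotype. F3H and CHS are highest in VP16 at 1.5 h, MYB111 is highest in Col at 1.5 h, ELIP2 in OX at 1.5 h, and LRX1 and AT3G28550 are highest in VP16 both in the dark and at 1.5 h.

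Among light-signalling genes HYH and RUP1 were members. HYH, the closest relative of HY5, had 9.30, 7.39 and 9.11 CPM in dark VP16, 16.1, 14.7 and 13.6 CPM in dark OX, 0.295 and 0 CPM in dark SRDX, 5.64, 4.95 and 5.72 CPM in dark Col and 0.154, 0.727 and 0.166 CPM in dark hy5. OX, VP16 and Col were each above hy5 with no overlap, by 3.57 ± 0.15 (adjusted p = 1.06e-16), 2.85 ± 0.15 (adjusted p = 2.14e-14) and 2.28 ± 0.15 (adjusted p = 3.44e-11). SRDX and hy5 overlapped near 0 in the dark and differed at 4 h, where HYH had 19.2 and 22.4 CPM in SRDX and 63.7 and 46.0 CPM in hy5 (-1.34 ± 0.19, adjusted p = 3.41e-06). RUP1, a repressor of the UV-B photoreceptor, had 174, 159.6 and 161 CPM in VP16, 176, 134 and 141 CPM in OX, 8.34 and 6.56 CPM in SRDX, 153, 162 and 177 CPM in Col and 13.2, 11.6 and 11.8 CPM in hy5 at 1.5 h. For RUP1 these values form a high level in VP16, OX and Col and a low level in SRDX and hy5. At 4 h RUP1 had 3.90 and 5.19 CPM in SRDX and 18.1 and 20.5 CPM in hy5, lower by -1.88 ± 0.21 (adjusted p = 1.39e-07). Of the whole light-signalling list of 32 genes, 12 rose and 1 fell in dark VP16 and 13 fell and 3 rose in SRDX at 4 h.

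BBX32, a B-box protein that interferes with light signalling, was close to 0 in the dark in all groups, at most 0.298 CPM. At 1.5 h it had 69.8, 85.4 and 62.0 CPM in VP16, 94.7, 75.6 and 84.2 CPM in OX, 28.7 and 27.6 CPM in SRDX, 83.9, 90.2 and 112 CPM in Col and 33.7, 46.8 and 48.3 CPM in hy5. BBX32 rose in light in Col, by 6.32 ± 0.15 (adjusted p = 5.11e-24), and the SRDX libraries were the lowest at 1.5 h. At 4 h SRDX was below hy5 by -0.95 ± 0.18 (adjusted p = 0.000249). Of the 19 B-box genes 15 rose and 3 fell in light in Col, and 10 fell in SRDX at 4 h.

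On the photoprotection and DNA repair list were ELIP2, an early light-induced protein of the thylakoid, and CRY3, a cryptochrome-family DNA repair photolyase. ABCI21, a soluble ABC-type ATPase, was the other member on that list. ELIP2 had 578, 340.2 and 499.7 CPM in VP16, 2652, 1837 and 1631 CPM in OX, 28.2 and 14.1 CPM in SRDX, 973, 756 and 784 CPM in Col and 40.0, 46.8 and 42.6 CPM in hy5 at 1.5 h. OX was the highest group, above Col by 1.26 ± 0.24 (adjusted p = 0.000331). In the dark ELIP2 fell in SRDX, to 3.09 and 2.09 CPM against 11.7, 10.8 and 12.7 CPM in hy5 (-1.84 ± 0.27, adjusted p = 1.96e-05), whereas VP16, at 22.2, 16.2 and 12.9 CPM, differed from hy5 by 0.48 ± 0.24 (adjusted p = 0.159). At 4 h it had 17.3 and 25.2 CPM in SRDX and 122 and 177 CPM in hy5 (-2.76 ± 0.29, adjusted p = 3.52e-08). ABCI21 had 474, 492 and 528 CPM in VP16, 134, 157 and 172 CPM in OX, 10.5 and 8.67 CPM in SRDX, 549.9, 577 and 654 CPM in Col and 14.9, 17.2 and 15.9 CPM in hy5 at 1.5 h. Unlike ELIP2, ABCI21 stood lower in OX than in Col, by -1.94 ± 0.12 (adjusted p = 6.94e-12), with no overlap. CRY3 had 12.9, 12.7 and 15.9 CPM in dark VP16 and 8.60, 5.18 and 4.56 CPM in dark hy5 (1.096 ± 0.17, adjusted p = 1.74e-05), and 7.53 and 4.67 CPM in SRDX and 28.9 and 24.9 CPM in hy5 at 4 h (-2.001 ± 0.21, adjusted p = 2.3e-08). All 3 of these members fell in SRDX at 4 h, as did 11 of the 15 genes of the list, with 1 higher.

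The regulators of the chloroplast among the members were SIG5, a light-induced sigma factor of plastid transcription, and CGA1, a GATA factor that promotes chloroplast development. SIG5 had 14.2, 11.9 and 13.4 CPM in dark VP16 and 2.61, 2.82 and 2.07 CPM in dark hy5 (2.02 ± 0.16, adjusted p = 2.04e-10), and 17.0 and 16.5 CPM in SRDX and 72.9 and 78.4 CPM in hy5 at 4 h (-2.11 ± 0.20, adjusted p = 3.37e-09). The dark groups and the 4 h groups of SIG5 did not overlap. CGA1 was listed at 0 in all 3 dark hy5 libraries, and at 72.8 and 46.0 CPM in hy5 at 4 h, at least 218-fold higher than a floor of 3 reads in the shallowest dark library. At 4 h CGA1 had 9.27 and 11.2 CPM in SRDX, below hy5 by -2.39 ± 0.32 (adjusted p = 2.44e-06). SIG5 lies on chromosome 5 beside another member, AT5G24130, which is annotated as a polypyrimidine tract-binding-like protein and was chosen after its values were seen. Their starts point away from each other with 1585 bases and 0 genes between them. AT5G24130 had 2.80, 2.46 and 2.85 CPM in dark VP16 and 0.307, 0.364 and 0.663 CPM in dark hy5 (1.36 ± 0.19, adjusted p = 3.28e-06), but 2.96 and 2.34 CPM in SRDX and 0.642 and 1.24 CPM in hy5 at 4 h (0.92 ± 0.23, adjusted p = 0.00477). The neighbours were thus both higher in dark VP16 and had opposite differences in SRDX at 4 h.

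The 3 photosynthesis members, LHCB1.2, LHCB1.3 and LHCB1.4, encode near-identical antenna proteins that bind chlorophyll, so that reads may be split among family members and their separate values are uncertain. LHCB1.4 had 191, 306 and 209 CPM in dark VP16, 259.8, 69.4 and 178 CPM in dark OX, 2.87 and 0.880 CPM in dark SRDX, 5.70, 1.67 and 8.52 CPM in dark Col and 1.61, 1.27 and 1.41 CPM in dark hy5. VP16 and OX were above the other dark groups with no overlap, by 6.57 ± 0.43 (adjusted p = 2.69e-12) and 5.94 ± 0.43 (adjusted p = 3.24e-11) relative to hy5. By limma 0 of these 3 members were called in SRDX against hy5 at 4 h (0 at an unadjusted p below 0.05, 0 by edgeR and 0 by DESeq2). LHCB1.4 had 182 and 159 CPM in SRDX and 279 and 172 CPM in hy5 at 4 h, with overlap (-0.36 ± 0.53, adjusted p = 0.705). LHCB1.2 had 963 and 777 CPM in SRDX and 1637 and 1182 CPM in hy5 at 4 h, with every SRDX library below every hy5 library (-0.69 ± 0.38, adjusted p = 0.229). The SRDX libraries of LHCB1.3 were likewise the lower ones at 4 h (-0.34 ± 0.38, adjusted p = 0.612). LHCB1.2 had 229, 229 and 288 CPM in dark VP16 and 30.8, 25.9 and 44.3 CPM in dark hy5 (2.88 ± 0.31, adjusted p = 4.41e-08). Of the 53 photosynthesis genes 45 rose in dark VP16 and 36 rose and 2 fell in dark OX. In SRDX at 4 h 15 of the 53 fell and 0 rose relative to hy5, with a median of -0.44. At 1.5 h 5 of the 53 passed both thresholds of the rule, of which LHCB1.1 and LHCB1.5 fell outside the limit of 200 members.

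Root hair markers and extensins were mostly higher in VP16 in the dark, while Col showed no called light response for either set. RHD2, a member that is in neither set, was lower in light in Col, by -0.68 ± 0.16 (adjusted p = 0.00109). It was also lower in light in OX, by -0.46 ± 0.16 (adjusted p = 0.0181). LRX1, a wall-bound leucine-rich repeat extensin of root hairs, had 2.40, 8.71 and 7.88 CPM in dark VP16, 0.900, 0.263 and 0.669 CPM in dark OX, 0.0736 and 0.110 CPM in dark SRDX, 3.08, 1.31 and 1.301 CPM in dark Col and 2.00, 2.45 and 1.57 CPM in dark hy5. VP16 was higher than hy5 by 1.15 ± 0.34 (adjusted p = 0.0149), although 1 VP16 library overlapped the hy5 libraries and the call did not pass without VP16 replicate 2 (adjusted p = 0.102), without VP16 replicate 3 (adjusted p = 0.0869) or without hy5 replicate 3 (adjusted p = 0.062). COBL9, a membrane-anchored protein of hair growth, had 3.70, 4.22 and 4.46 CPM in dark VP16 and 0.768, 0.727 and 0.663 CPM in dark hy5, with no overlap (1.57 ± 0.17, adjusted p = 4.54e-08). PRP3, a proline-rich wall protein of root hairs, was higher in dark VP16 by 1.64 ± 0.37 (adjusted p = 0.00151), and RHD6, a transcription factor that starts hair formation, differed by 0.12 ± 0.21 (adjusted p = 0.727). COBL9, PRP3 and LRX1 but not RHD6 thus rose in dark VP16, at levels of a few CPM.

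The summed level of all 7 root hair markers was 15.6 to 37.9 CPM in dark VP16, 4.01 to 5.13 in OX, 1.18 to 3.2996 in SRDX, 6.57 to 11.5 in Col and 5.80 to 9.64 in hy5. For the 3 markers that are not members (EXPA7, EXPA18 and RSL4), which the rule did not take, it was 3.301 to 8.27 CPM in dark VP16, 0.147 to 0.660 in SRDX and 0.995 to 1.91 in hy5. At 1.5 h these 3 were at 5.76 to 8.47 CPM in VP16, 0.310 to 0.386 in SRDX and 0.494 to 2.097 in hy5, and EXPA18 was at 0 in dark OX and in SRDX at 1.5 h. Each of these 3 was called higher in dark VP16 than in dark hy5, EXPA7 by 1.36 (adjusted p = 0.000146), RSL4 by 0.69 (adjusted p = 0.0271) and EXPA18 by 0.60 (adjusted p = 0.0215). In dark SRDX none of the 3 passed (adjusted p between 0.234 and 0.58), and of all 7 markers only LRX1 was called lower there. At 4 h the sum of the 3 was 0.843 to 1.61 CPM in SRDX and 1.71 to 2.26 in hy5, while the sum of all 7 overlapped, at 6.62 to 12.8 CPM in SRDX and 9.42 to 9.68 in hy5. Of all 7, 6 rose in dark VP16 and 7 were higher in dark VP16 than in dark SRDX. In whole seedlings more cells of a type and more RNA per cell cannot be told apart, and the part of root hair number in these members was not tested.

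The 11 members whose product names contain extensin, hydroxyproline-rich or proline-rich, a grouping made after values were seen, followed the same order and include LRX1 and PRP3. Extensins are repetitive wall glycoproteins, and since their genes share sequence their separate values are uncertain. All 11 rose in dark VP16 (median 1.21; 9 by edgeR and 8 by DESeq2) and all 11 were higher in dark VP16 than in dark SRDX, while 5 fell in dark SRDX. AT3G28550, a proline-rich extensin-like protein, had 246, 518 and 524 CPM in dark VP16, 116, 78.9 and 76.0 CPM in dark OX, 41.6 and 29.1 CPM in dark SRDX, 203, 91.3 and 178 CPM in dark Col and 161, 156 and 117 CPM in dark hy5. Every VP16 library was above and every SRDX library below all hy5 libraries, with differences of 1.50 ± 0.30 (adjusted p = 0.000431) and -2.01 ± 0.33 (adjusted p = 0.000142). At 4 h it had 174 and 149 CPM in SRDX and 174 and 144 CPM in hy5 (0.03 ± 0.37, adjusted p = 0.974), so that the dark difference was not seen at 4 h. The change between dark and 4 h in AT3G28550 was larger in SRDX by 2.03 ± 0.50 (adjusted p = 0.00839, with 1.78 and no call without dark SRDX replicate 2).

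By limma 0 of the 11 were called in SRDX against hy5 at 4 h (3 higher and 0 lower at an unadjusted p below 0.05, 0 by edgeR and 0 by DESeq2), with differences between -0.46 and 0.99. The 4 h change was called larger in SRDX than in hy5 for 6 of the 11, among 12 members so called in all, and the estimates for all 11 lay between 0.42 and 2.45. The light response of Col was not called for any of the 11 by limma, edgeR or DESeq2 nor at an unadjusted p below 0.05, with values between -0.51 and 0.29. In the windows before their starts CACGTC was present in 6 of the 11 and CACGTG in 0, as printed above for AT3G28550 and EXT10. EXT10 had 5.80, 24.7 and 12.5 CPM in dark VP16, 1.55 and 0.770 CPM in dark SRDX and 5.30, 5.27 and 3.81 CPM in dark hy5. XTH14, a wall-remodelling xyloglucan endotransglucosylase, had 11.7, 13.5 and 11.6 CPM in dark VP16, 0.368 and 0.770 CPM in dark SRDX, 5.99, 5.85 and 10.02 CPM in dark Col and 3.38, 1.82 and 2.65 CPM in dark hy5. For XTH14 VP16 and Col were above hy5, by 1.89 ± 0.22 (adjusted p = 2.09e-07) and 1.18 ± 0.22 (adjusted p = 0.00258), and SRDX was below it, by -1.19 ± 0.25 (adjusted p = 0.00189).

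In light, the unmodified protein and the wild type bear on the members without the fused domains. In Col 122 members rose between dark and 1.5 h (61%, against 18.0% of all genes) and 8 fell (4%, against 17.9%), and in OX 118 rose (59%, against 23.6%) and 5 fell (2.5%, against 22.6%). AT5G42760, annotated as a leucine carboxyl methyltransferase, was at most 0.130 CPM in the dark in any library and reached 112, 96.9 and 98.8 CPM in Col and 94.7, 101 and 110.1 CPM in OX at 1.5 h. It fell in SRDX at 4 h, to 55.7 and 51.4 CPM against 133 and 100.2 CPM in hy5 (-1.09 ± 0.15, adjusted p = 3.49e-06). AT4G35720, a DUF241 domain protein, was lower in light, with 15.6, 16.03 and 31.0 CPM at 1.5 h and 118, 102 and 107 CPM in the dark in Col (-2.40 ± 0.22, adjusted p = 1.84e-10). Of the 122 members that rose in Col, 63 were also higher in dark VP16 and 54 were not called there, and of the 70 not called in Col, 51 were higher in dark VP16. Among those 51, 14 were lower in SRDX at 4 h, and their median level at 1.5 h was 6.47 CPM in VP16 and 2.42 CPM in hy5. Of the 63, 52 were lower in SRDX at 4 h. Over all genes 11.1% were higher in dark VP16 and 9.65% lower in SRDX at 4 h. The shares of all genes with these joint calls were not counted, so the joint counts only describe the members.

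At 1.5 h, by the levels without a test because the hy5 libraries entered the rule, every Col library was above every hy5 library in 112 members (56%, against 13.1% of all genes) and below in 10 (5%, against 14.4%). For OX against hy5 the counts were 112 above (56%, against 19.0%) and 6 below (3%, against 19.8%). The Col minus hy5 difference had a median of 0.47 and was below 0 in 40 members, and that of OX minus hy5 had a median of 0.50 and was below 0 in 39. VP16 was not the highest group everywhere, since 31 members had a higher mean in Col and 43 a higher mean in OX at 1.5 h. OX and Col at 1.5 h did enter a test, in which 42 members were higher in OX (21%, against 10.8% of all genes) and 29 lower (14.5%, against 9.13%). SWEET1, a sugar transporter, had 45.0, 48.3 and 53.5 CPM in OX and 20.4, 15.5 and 15.5 CPM in Col (1.47 ± 0.13, adjusted p = 6.38e-09). CXE5, a carboxylesterase, had 60.0, 42.4 and 37.9 CPM in OX and 129, 145 and 139 CPM in Col (-1.56 ± 0.14, adjusted p = 6.28e-09). The members were therefore not a uniform group in the line with unmodified HY5.

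In the dark OX was higher than hy5 in 42 members (21%, against 6.72% of all genes) and lower in 15 (7.5%, against 6.76%), with a median of 0.06. The 15 were 7 by edgeR and 11 by DESeq2, and by limma 5 without OX replicate 2, 8 without OX replicate 1, 7 without hy5 replicate 2 and 8 without hy5 replicate 3. Col was higher than hy5 in 11 (5.5%, against 0.859%) and lower in 2 (1%, against 1.16%), with a median of 0.07. Without Col replicate 1 or without hy5 replicate 2 in the dark 7 members were higher in Col. Beside HYH, CHS and XTH14, the 11 included ADR1, a disease resistance protein, which had 19.01, 18.98 and 14.9 CPM in Col and 9.60, 8.82 and 10.2 CPM in hy5 (0.82 ± 0.13, adjusted p = 0.000691). In dark OX, AT1G02360 was below hy5 by -0.93 ± 0.14 (adjusted p = 2.01e-05), with 13.0, 11.3 and 12.2 CPM in OX, so that for this member OX lay on the side of SRDX and VP16 on the other side of hy5.

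MIR163, another member, is the gene of a microRNA and was chosen after its values were seen. Its mature product in the annotation, ath-miR163, lies on chr1:24884359-24884382 on the plus strand in TAIR10.1, and capitals mark its seed, bases 2 to 8.
ath-miR163: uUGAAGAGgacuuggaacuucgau
The libraries hold poly(A) RNA, so the values are of the precursor transcript and not of the mature microRNA. MIR163 had 42.0, 48.7 and 48.5 CPM in VP16, 84.1, 90.3 and 91.6 CPM in OX, 5.95 and 3.72 CPM in SRDX, 48.0, 41.7 and 45.8 CPM in Col and 11.2, 11.2 and 11.6 CPM in hy5 at 1.5 h. OX was the highest group and was above Col by 0.96 ± 0.15 (adjusted p = 2.18e-05), and VP16 and Col overlapped. At 4 h it had 1.81 and 1.17 CPM in SRDX and 11.4 and 11.7 CPM in hy5 (-2.34 ± 0.18, adjusted p = 4.51e-11).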

How the data were processed

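The deposited table holds a normalised signal per gene and library, named CPM by the submitters. Its columns differ in their sums, from 925942 to 1066829, so the scaling was not by the column total alone. The table is treated as CPM as normalised by the authors. Per the submitters' processing notes the tools named include edgeR 3.16.5, HTSeq 0.6.0 and TopHat2 2.0.11, with no role or order given, and the genome named is TAIR10. The plan had assumed CPM, and its test was kept. Values were tested as log2(CPM + 1) with limma 3.58.1 (R 4.3.3), 1 mean for each of the 12 groups over all 32 libraries, two-sided, with Benjamini-Hochberg adjustment per comparison over all genes and a threshold of 0.05. All adjusted p-values in the report are limma's unless edgeR is named. Error is ± SE of the fit. Whole reads were recovered from the values (100% whole within 0.01 of a read), and edgeR 4.0.16 quasi-likelihood and DESeq2 1.42.0 tests on them were alternatives; for VP16 against hy5 in the dark edgeR called 2064 genes higher and 2036 lower, where limma called 4368 in all. The limma fit was tested on simulated data.

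The members, the gene lists and the rule for named genes were chosen with earlier results of these data known. Named are list members, the 10 largest VP16 minus SRDX differences, the 5 largest called changes per direction and comparison (no overlap, and the higher group averaging 5 CPM or more), genes at the limits of the rule, and HY5. EXT10 was named outside this rule, from the extensin grouping made after values were seen. Other settings were a pseudocount of 0.25, filters on low values, median-of-ratios scaling, a block for replicate number, and fits that leave out 1 library or hold only the groups compared. The interaction of SRDX and hy5 was added after seeing the data. Replicates of a group differed by 3.24 to 20.7 times counting variance over 28 pairs. Deviations of libraries with the same number correlated above 0.1 in every pair for Col against hy5 in the dark (0.243 to 0.393). The same held for OX in light against dark (0.135 to 0.453). For SRDX against hy5 at 4 h the correlation was 0.153 in both pairs, which are 1 value because groups of 2 deviate as mirror images. Col in light against dark had 0.052 to 0.126. No other comparison was above 0.1 in every pair. The labels name no shared batch. Sequences and gene positions were read from the RefSeq TAIR10.1 genome and annotation, where 19582 of 19685 gene identifiers were found; the deposited table holds no coordinates. The sequence before 1 further member is not reported here.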

Additional observations from a re-analysis of the deposited data

Results flagged for a closer look

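The change between dark and 4 h of light differed between SRDX and hy5 by limma's interaction test in 67 members, lower in SRDX in 55 and higher in 12. Among the genes of the lists the differences of SRDX minus hy5 were -2.64 for CGA1, -2.30 for F3H, -1.39 for SIG5, -1.29 for RUP1, -1.24 for CRY3, -1.12 for HYH, -1.09 for BBX32, -1.05 for UGT78D2 and -0.98 for ABCI21, all on the log2(CPM + 1) scale. The interaction was chosen after the data had been seen. With edgeR on recovered reads 39 members were lower and 8 higher, and CGA1, F3H, SIG5, HYH, BBX32 and UGT78D2 did not pass the threshold. RUP1 did not pass without dark SRDX replicate 1 (adjusted p = 0.056), nor did CRY3 (adjusted p = 0.055).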

How the results depend on the processing

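Over all settings other than a left-out replicate, 94 of 96 counts of called members, 1 direction a comparison, stayed within 1.5 times of the reported count. In the opposite direction, edgeR gave 7 and DESeq2 11 for the 15 members lower in OX than in hy5 in the dark, and a mean of at least 5 CPM gave 5 for the 12 with a higher 4 h change in SRDX. With a mean of at least 5 CPM, where 134 members remain to be tested, 73 members were higher in VP16 than in hy5 in the dark and 97 were higher in VP16 than in SRDX, and the smaller number tested is part of that change. Leaving out 1 library at a time gave 34 to 54 members lower in SRDX than in hy5 in the dark and 7 to 12 higher in Col than in hy5 in the dark. Without hy5 replicate 1 at 4 h, 13 rather than 20 members were lower at 4 h in hy5 and 1 rather than 3 higher in SRDX than in hy5, a count that was 1 without hy5 replicate 2 and 0 without SRDX replicate 1. The 2 members lower in Col than in hy5 in the dark were 7 without Col replicate 3 and 4 by DESeq2. Other left-out libraries gave 102 to 112 higher for VP16 against hy5 in the dark and 102 to 111 lower for SRDX against hy5 at 4 h. AT5G42760 changed sign in the interaction of SRDX and hy5 with edgeR, to 0.92 (adjusted p = 0.718), where limma gave -1.06; it was at 0 in both dark SRDX libraries. With the replicate block 119 members were higher in VP16 than in hy5 in the dark, 74 lower in SRDX than in hy5 in the dark and 129 lower at 4 h, and no count moved by more than 1.5 times in either direction. Depth limits the 30 members with every group mean under 5 CPM.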
